A study of Setaria viridis with 22 samples.

Results

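The 10 genes described here encode auxin response factors (ARFs) of green millet, *Setaria viridis*. They were taken by gene identifier from a list drawn up with earlier results of these data known, and are 10 of the 24 ARF genes in the study's list of auxin genes and of the 35214 genes in the expression table. By the class of their best Arabidopsis match, 5 were placed in class A, 3 in class B and 2 in class C. The class A genes are Sevir.3G028900 (best match ARF5, also called MONOPTEROS), Sevir.3G021400 (ARF6), Sevir.1G075700 (ARF8), Sevir.1G089100 (ARF7) and Sevir.4G252900 (ARF19). The class B genes are Sevir.3G183400 (ARF3, also called ETTIN), Sevir.7G115700 and Sevir.1G202700 (both ARF1), and the class C genes are Sevir.1G246300 (ARF16) and Sevir.3G004300 (ARF17). No promoter or protein sequence matched to these identifiers was used here.

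ARFs are transcription factors that bind auxin response elements in the promoters of auxin-responsive genes. When auxin is low, Aux/IAA repressors bind many ARFs through a shared interaction domain called PB1, and when auxin binds receptors of the TIR1/AFB family the Aux/IAA proteins are degraded and the ARFs are released. In Arabidopsis, class A ARFs act mainly as activators, and class B and C ARFs mainly as repressors that can compete for the same sites. In the same species MONOPTEROS is needed for flowers to start on the inflorescence flank, ETTIN lacks PB1 and patterns the gynoecium, ARF6 and ARF8 are targets of the microRNA miR167, and ARF16 and ARF17 are targets of miR160. These roles come from Arabidopsis and were not measured in *S. viridis* here.

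Expression was measured by RNA-seq of whole inflorescences from A10.1, the wild-type accession, and from the *spp1* mutant, which was isolated in A10.1 and carries a mutation in *SPP1*, a gene for an auxin importer of the AUX1 family. Each genotype had 4 libraries at 10 days after sowing (DAS), 3 at 12 DAS and 4 at 14 DAS, 22 in all. Each library came from pooled inflorescences, and the mutant is represented by a single mutation. Values are FPKM, fragments scaled to transcript length and to the number of fragments mapped, which allows levels to be compared between genes. In whole inflorescences, fewer cells of a type and less RNA per cell cannot be told apart.

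Between 10.4 and 24.3 M (megareads) of first reads mapped per library, 86.69% to 93.22% of the reads. FPKM values carry no counts, so errors here are the spread between libraries, each a separate pool. The meristem genes Sevir.2G029800 and Sevir.9G107200, of the KNOX family, were present in all 22 libraries, at 82.0 to 366 FPKM and 20.3 to 78.6 FPKM. The *SPP1* transcript itself (Sevir.5G392400) had a mean of 27.4 FPKM in A10.1 and 22.5 FPKM in *spp1* at 10 DAS, and of 32.6 FPKM and 20.8 FPKM at 14 DAS. Replicate 4 of *spp1* at 14 DAS stood apart. The smallest mapped total and share above were its own, and it had a score of -58.2 on the second principal component where the other 21 libraries had scores between -22.4 and 26.4. The main counts that use it, and the values it moved most, are also given without it.

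The 10 ARF genes spanned a wide range of levels, with a class A gene at the top and a class C gene at the bottom. Among the 10, Sevir.3G021400, the ARF6 match, had the highest mean over the 22 libraries, at 104 FPKM (SD 21.4), and ranged from 74.0 to 153 FPKM. Below it came Sevir.3G183400 (54.1 FPKM), Sevir.1G246300 (42.1 FPKM), Sevir.1G202700 (38.3 FPKM), Sevir.7G115700 (34.8 FPKM), Sevir.1G089100 (30.2 FPKM), Sevir.4G252900 (26.2 FPKM), Sevir.1G075700 (20.3 FPKM) and Sevir.3G028900 (14.4 FPKM). The lowest of the 10 was Sevir.3G004300, the ARF17 match, at 2.11 FPKM (SD 0.548) with a range of 1.21 to 3.67 FPKM. Of all 24 ARF genes, the class B genes Sevir.5G444700 (223 FPKM) and Sevir.8G145300 (172 FPKM) lay above Sevir.3G021400, and the class A gene Sevir.4G037900 (1.52 FPKM) lay below Sevir.3G004300. In the order of the 10, neighbours were called apart where the mean log2 ratio within a library exceeded its SD over the 22 libraries. By that measure Sevir.3G021400 stood above Sevir.3G183400 (mean log2 ratio 0.98, SD 0.39), Sevir.1G075700 above Sevir.3G028900 (0.49, SD 0.28), and Sevir.3G028900 above Sevir.3G004300 (2.80, SD 0.42). The other 6 neighbouring pairs, from Sevir.3G183400 down to Sevir.1G075700, did not differ beyond their spread.

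**Figure D1:**
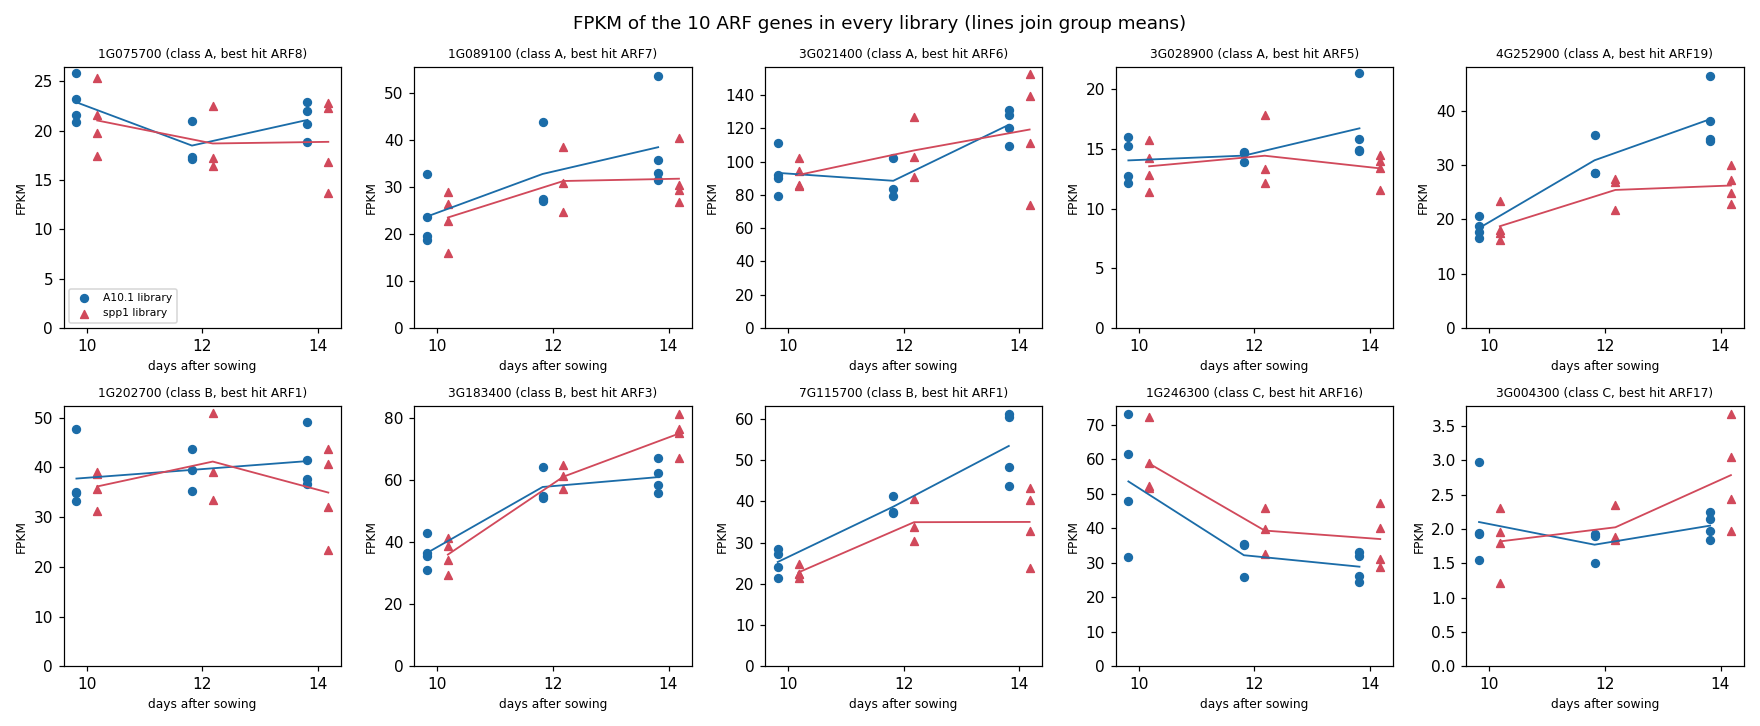
FPKM of each of the 10 ARF genes (vertical axis, from 0, a scale for each panel) against days after sowing (horizontal axis), with 1 point per library for A10.1 (circles) and *spp1* (triangles) and lines through the group means. The genotypes overlap at 10 DAS in every panel. At 14 DAS the *spp1* libraries of Sevir.4G252900, Sevir.7G115700 and Sevir.3G028900 lie below all A10.1 libraries.

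The course of each gene within a genotype was followed from 10 to 14 DAS, with limma on log2(FPKM + 1) and an adjusted p of 0.05 as the threshold over all genes tested. In A10.1, 5 of the 10 genes rose and 1 fell. The 3 largest rises were those of Sevir.7G115700, Sevir.4G252900 and Sevir.3G183400, a class B, a class A and a class B gene, and the fall was that of the class C gene Sevir.1G246300. Of all genes tested, 48.4% passed in this comparison, so 6 of 10 is a share near the background. The median change of the 10 genes was 0.31 on the log2 scale, and that of all genes tested was 0.13.

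Sevir.4G252900, the match of ARF19, which promotes lateral root formation in Arabidopsis, had 20.5, 16.6, 18.8 and 17.7 FPKM in the 4 A10.1 libraries at 10 DAS. It had 35.5, 28.6 and 28.6 FPKM at 12 DAS and 46.4, 38.2, 34.4 and 34.8 FPKM at 14 DAS. No 10 DAS library reached the lowest 12 DAS library. The rise from 10 to 14 DAS was 2.02-fold on the log2(FPKM + 1) scale (log2 1.02, SE 0.11, limma adjusted p = 2.46e-05), and most of it was in place at 12 DAS (log2 0.71, SE 0.12, limma adjusted p = 0.00249).

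Sevir.7G115700 belongs to the class B group around ARF1, which is known as a repressor in Arabidopsis. It had 28.3, 21.5, 24.1 and 27.2 FPKM in A10.1 at 10 DAS, 37.2, 41.3 and 37.5 FPKM at 12 DAS, and 60.4, 61.2, 43.8 and 48.2 FPKM at 14 DAS. The 3 stages did not overlap. Its rise from 10 to 14 DAS was 2.06-fold (log2 1.04, SE 0.12, limma adjusted p = 3.35e-05).

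Sevir.3G183400, the ETTIN match, for which the study's gene list names no PB1 domain, rose by 12 DAS. Its A10.1 libraries had 43.1, 35.5, 36.4 and 31.1 FPKM at 10 DAS, 64.2, 55.0 and 54.1 FPKM at 12 DAS, and 67.0, 62.4, 55.8 and 58.5 FPKM at 14 DAS. The 12 and 14 DAS libraries overlapped, and both stages lay above 10 DAS. The change from 10 to 12 DAS was 0.65 on the log2 scale (SE 0.11, limma adjusted p = 0.00262), and from 12 to 14 DAS it was 0.08 (SE 0.11, limma adjusted p = 0.737).

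Sevir.1G246300, a match of ARF16, was the 1 gene of the 10 that fell in A10.1. Its A10.1 values were 61.6, 47.8, 73.0 and 31.8 FPKM at 10 DAS, 35.5, 25.9 and 35.1 FPKM at 12 DAS, and 26.1, 24.3, 33.0 and 32.0 FPKM at 14 DAS. Replicate 4 at 10 DAS lay within the range of the later stages, and the other 3 libraries at 10 DAS lay above it. From 10 to 14 DAS it fell to 0.568 of the starting level (log2 -0.82, SE 0.21, limma adjusted p = 0.00844).

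The other rises in A10.1 were smaller and depended more on the processing. Sevir.1G089100, the ARF7 match, had a mean of 23.8 ± 6.47 FPKM at 10 DAS and 38.5 ± 10.2 FPKM at 14 DAS (SD, n = 4 each), with overlapping libraries (log2 0.68, SE 0.21, limma adjusted p = 0.0204). Replicate 1 was the highest library of this gene at each stage in A10.1, at 32.9, 43.9 and 53.7 FPKM. Without replicate 1 of 14 DAS the adjusted p of Sevir.1G089100 by limma was 0.0641, and without replicate 2 of 10 DAS it was 0.0610. Sevir.3G021400 had 93.2 ± 13.3 FPKM at 10 DAS, 88.5 ± 12.3 FPKM at 12 DAS (n = 3) and 122 ± 9.47 FPKM at 14 DAS (log2 0.39 from 10 to 14 DAS, SE 0.11, limma adjusted p = 0.0134). Its change fell in the last step, where it was the 1 gene of the 10 past the threshold (log2 0.47, SE 0.12, limma adjusted p = 0.0467), a call that was lost in 6 of 11 fits that left out 1 library.

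When each library was scaled by its median ratio, the median change of all genes from 10 to 14 DAS in A10.1 moved by -0.12 on the log2 scale. Relative to that shift Sevir.4G252900 (log2 0.88), Sevir.7G115700 (0.91) and Sevir.3G183400 (0.59) still rose and Sevir.1G246300 (-0.95) still fell. Sevir.1G089100 (log2 0.54, limma adjusted p = 0.0625) and Sevir.3G021400 (0.26, limma adjusted p = 0.0703) no longer passed, and the ARF8 match Sevir.1G075700 fell (-0.24, limma adjusted p = 0.0223).

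The remaining 4 genes did not pass from 10 to 14 DAS in A10.1. The MONOPTEROS match Sevir.3G028900 had 14.1 ± 1.87 FPKM at 10 DAS and 16.7 ± 3.10 FPKM at 14 DAS (SD, n = 4 each), and Sevir.1G202700, of the ARF1 group, had 37.8 ± 6.76 FPKM and 41.3 ± 5.67 FPKM. Sevir.1G075700 had 22.9 ± 2.16 FPKM and 21.1 ± 1.77 FPKM, and Sevir.3G004300 had 2.10 ± 0.614 FPKM and 2.05 ± 0.178 FPKM. Their log2 changes lay between -0.11 and 0.23. By single steps, 3 of the 10 genes rose from 10 to 12 DAS in A10.1, against 13.2% of all genes tested, and 1 rose from 12 to 14 DAS, against 5.18%. With 1 library left out these shares lay between 7.46% (without replicate 1 of 12 DAS) and 21.3% (without replicate 4 of 10 DAS) for the first step, and between 2.81% (without replicate 2 of 12 DAS) and 6.11% (without replicate 4 of 10 DAS) for the second.

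In *spp1*, 3 of the 10 genes rose from 10 to 14 DAS and 1 fell, against 18.2% of all genes tested that passed in either direction. Without replicate 4 of *spp1* at 14 DAS, 4 rose and 1 fell, against 30.0% of all genes. The 4 genes that passed with all libraries were those of the 10 with the largest changes in A10.1, with the same signs. Sevir.3G183400 had 34.3, 38.8, 29.5 and 41.3 FPKM at 10 DAS, 61.2, 64.8 and 57.2 FPKM at 12 DAS, and 75.2, 81.3, 67.0 and 76.3 FPKM at 14 DAS. The 3 stages did not overlap, where in A10.1 the last pair had overlapped. The rise from 10 to 14 DAS was 2.06-fold (log2 1.05, SE 0.11, limma adjusted p = 6.42e-05).

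Sevir.4G252900 had 17.4, 17.97, 16.2 and 23.4 FPKM in *spp1* at 10 DAS, 27.0, 27.5 and 21.8 FPKM at 12 DAS, and 24.8, 30.1, 22.9 and 27.2 FPKM at 14 DAS. The highest library at 10 DAS lay inside the range of the later stages. The rise from 10 to 14 DAS was 1.39-fold (log2 0.47, SE 0.13, limma adjusted p = 0.0251), and it passed in 7 of the 11 fits that left out 1 library.

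Sevir.7G115700 had 22.4, 22.3, 21.5 and 24.8 FPKM in *spp1* at 10 DAS, 33.8, 40.5 and 30.5 FPKM at 12 DAS, and 40.3, 43.2, 32.7 and 23.7 FPKM at 14 DAS. The lowest of these 14 DAS values, in replicate 4, lay inside the range of 10 DAS. The rise from 10 to 14 DAS was 1.48-fold (log2 0.57, SE 0.16, limma adjusted p = 0.0317) with all libraries and 1.66-fold (log2 0.73, limma adjusted p = 0.00154) without replicate 4 of 14 DAS, and it passed in 5 of the 11 fits that left out 1 library.

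Sevir.1G246300 fell in *spp1* from 52.2, 72.2, 51.7 and 58.8 FPKM at 10 DAS to 28.9, 31.0, 40.2 and 47.3 FPKM at 14 DAS, with no overlap (log2 -0.67, SE 0.17, limma adjusted p = 0.0166). At 12 DAS it had 39.7, 32.4 and 45.8 FPKM. Sevir.3G021400 had 92.0 ± 8.03 FPKM at 10 DAS and 119 ± 34.8 FPKM at 14 DAS in *spp1* (log2 0.32, SE 0.20, limma adjusted p = 0.282). Without replicate 4 of 14 DAS, which held 74.0 FPKM of this gene against 111 to 153 FPKM in the others, it rose (log2 0.53, limma adjusted p = 0.0152). The median log2 change of the 10 genes in *spp1* was 0.37, and that of all genes tested was 0.05.

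By single steps in *spp1*, the ETTIN match Sevir.3G183400 alone of the 10 genes rose from 10 to 12 DAS (log2 0.76, SE 0.12, limma adjusted p = 0.00679), where 2.54% of all genes passed. Without replicate 4 of *spp1* at 14 DAS, which enters through the shared spread, 6.24% of all genes passed and Sevir.7G115700 rose as well (log2 0.59, SE 0.12, limma adjusted p = 0.0204), and without replicate 1 of 12 DAS 0.531% of all genes passed. From 12 to 14 DAS 0 of the 10 genes passed by limma, where 1.55% of all genes did. Of the 10, 1 gene, Sevir.3G183400, had an unadjusted p under 0.05 (log2 0.29, SE 0.12, limma adjusted p = 0.334), where 11.4% of all genes did. Over these days the leaf marker Rubisco activase (Sevir.8G261500) had a mean of 36.7 FPKM at 10 DAS and 9.19 FPKM at 14 DAS in A10.1, and of 46.9 FPKM and 15.4 FPKM in *spp1*. *SvBA1* (Sevir.5G374100), whose maize counterpart marks axillary meristems, had 3.65 FPKM and 77.2 FPKM in A10.1, and 1.82 FPKM and 33.0 FPKM in *spp1*. *SvTFL1* (Sevir.8G033800), an inflorescence gene, went the other way. At 14 DAS its mean was 0.66 FPKM in A10.1 and 1.48 FPKM in *spp1*, against 5.98 FPKM and 6.38 FPKM at 10 DAS. The KNOX gene Sevir.2G029800 had 105 FPKM in both genotypes at 10 DAS. By 14 DAS it reached 322 FPKM in A10.1 and 209 FPKM in *spp1*. Sevir.9G107200, *SvRA2* (Sevir.5G116100) and *SvTSH1* (Sevir.3G136200) also had higher means at 14 DAS than at 10 DAS. Their 14 DAS means were lower in *spp1*. The part of a shift in tissue makeup in the ARF changes was not tested.

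**Figure D2:**
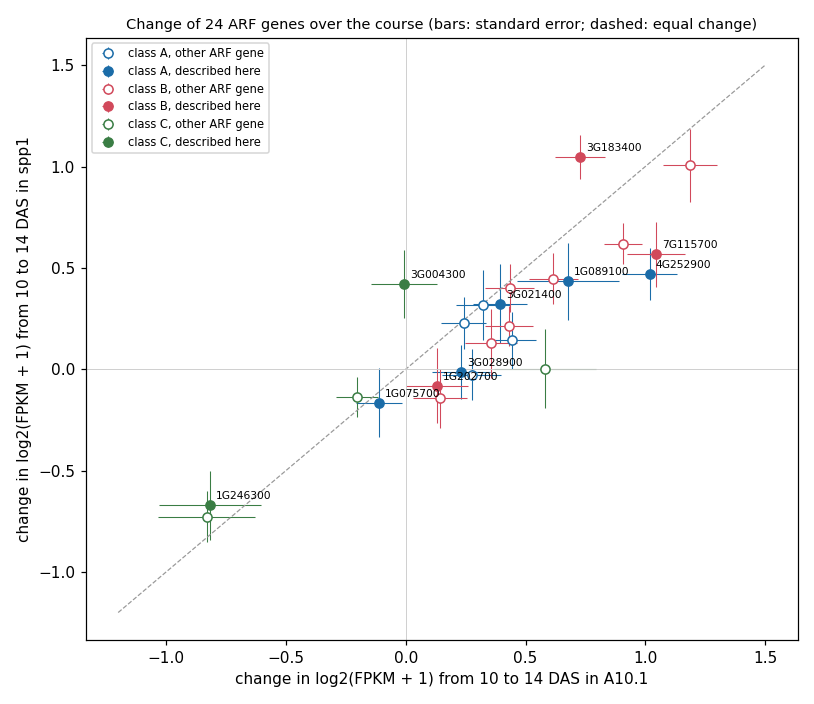
Change in log2(FPKM + 1) from 10 to 14 DAS in A10.1 (horizontal axis) and in *spp1* (vertical axis) for the 24 ARF genes, by class, with bars for the standard error and a dashed line of equal change. The 10 genes described here are filled and named. Sevir.3G183400 lies above the line (0.73 in A10.1 and 1.05 in *spp1*), and Sevir.4G252900 (1.02 and 0.47) and Sevir.7G115700 (1.04 and 0.57) lie below it.

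The comparison of genotypes asked which ARF transcripts differ when an auxin importer is mutated. At 10 DAS, 0 of the 10 genes passed by limma, where 0.0279% of all genes tested passed, and 0 had an unadjusted p under 0.05, where 4.16% of all genes did. The 10 log2 differences, *spp1* minus A10.1, lay between -0.14 for Sevir.7G115700 and 0.18 for Sevir.1G246300, and none of the 10 genes had groups without overlap, against 2.59% of all genes.

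At 12 DAS, again 0 of 10 passed by limma, where 0.288% of all genes passed, and 0 had an unadjusted p under 0.05, where 9.05% of all genes did. The share of all genes that passed lay between 0.0508% (A10.1 replicate 4 left out) and 0.458% (*spp1* replicate 1 left out). For 1 gene, Sevir.4G252900, the 3 *spp1* libraries (27.0, 27.5 and 21.8 FPKM) all lay below the 3 A10.1 libraries (35.5, 28.6 and 28.6 FPKM). Groups without overlap were found for 12.8% of all genes at this stage, so 1 of 10 is near the background. The log2 difference was -0.27 (SE 0.13, limma adjusted p = 0.629), and the two-sided exact permutation test gave p = 0.1, the smallest that 3 against 3 libraries allow.

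At 14 DAS, 0 of the 10 genes passed by limma over all genes, where 1.93% of all genes passed. With 1 library left out it was 0 of 10 each time, and the share of all genes lay between 0.368% (A10.1 replicate 1 left out) and 3.25% (*spp1* replicate 4 left out). At an unadjusted p under 0.05 there were 4, Sevir.4G252900, Sevir.7G115700, Sevir.3G183400 and Sevir.3G028900, which is 40% of the 10 genes against 22.9% of all genes. The study had picked out Sevir.4G252900, Sevir.7G115700 and Sevir.3G183400 from these same libraries, so their direction at 14 DAS is not independent evidence. The paper reports several, but not all, Aux/IAA and ARF genes as differing in *spp1*, by another test (Cuffdiff). The count of 0 of 10 here is by limma on log2(FPKM + 1), so the calls need not match. Groups without overlap were found for 3 of the 10 genes, all lower in *spp1*. In either direction they were found for 14.3% of all genes tested, and the share for lower alone was not computed. The genes tested leaned lower in *spp1* as a whole at this stage. A positive difference was found for 6250 of 17645 genes tested and for 3 of the 10 genes.

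Sevir.4G252900 was at 46.4, 38.2, 34.4 and 34.8 FPKM in A10.1 and at 24.8, 30.1, 22.9 and 27.2 FPKM in *spp1*. The 2 sets of libraries did not overlap, with *spp1* below. The level in *spp1* was 0.692 of that in A10.1 (log2 -0.53, SE 0.12, limma adjusted p = 0.0619), and the exact permutation test gave p = 0.0286, the smallest that 4 against 4 libraries allow. Without the library that stood apart the log2 difference was -0.55 (limma adjusted p = 0.0601). In 1 fit of all 22 libraries, which shares the spread over groups, the difference passed (limma adjusted p = 0.0148), as did 8.71% of all genes. Of 6 alternative ways of processing it passed in 1, with limma adjusted p of up to 0.0983. Of 8 fits that left out 1 library it passed in 0 (limma adjusted p of 0.0601 to 0.174).

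Sevir.7G115700 was at 60.4, 61.2, 43.8 and 48.2 FPKM in A10.1 and at 40.3, 43.2, 32.7 and 23.7 FPKM in *spp1*, with the groups parted by a gap of less than 1 FPKM. The level in *spp1* was 0.652 of that in A10.1 (log2 -0.62, SE 0.19, limma adjusted p = 0.126, exact permutation p = 0.0286). Without the library that stood apart, which held the lowest value, the log2 difference was -0.45 (limma adjusted p = 0.138). The fit of all 22 libraries, with its larger share of calls, called this gene too (limma adjusted p = 0.0176). Of 6 alternative ways of processing it passed in 2, with limma adjusted p of up to 0.184. Of 8 fits that left out 1 library it passed in 0 (limma adjusted p of 0.0956 to 0.312).

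Sevir.3G183400 was the 1 class B gene with a positive difference at 14 DAS, with 67.0, 62.4, 55.8 and 58.5 FPKM in A10.1 and 75.2, 81.3, 67.0 and 76.3 FPKM in *spp1*. The highest A10.1 library and the lowest *spp1* library met at 67.0 FPKM. The difference was 1.23-fold (log2 0.29, SE 0.09, limma adjusted p = 0.131, exact permutation p = 0.0571), and 0.28 on the log2 scale without the library that stood apart. Sevir.3G028900, the MONOPTEROS match, had 21.4, 14.9, 14.9 and 15.8 FPKM in A10.1 and 13.4, 14.5, 11.6 and 14.0 FPKM in *spp1*, without overlap (log2 -0.29, SE 0.13, limma adjusted p = 0.218, exact permutation p = 0.0286). Its 12 DAS groups overlapped, with 14.7, 14.7 and 14.0 FPKM in A10.1 and 12.2, 17.8 and 13.3 FPKM in *spp1*.

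The other 6 genes had overlapping groups at 14 DAS. Both class C genes had positive differences, of 0.33 (SE 0.17, limma adjusted p = 0.258) for Sevir.1G246300 and 0.29 (SE 0.15, limma adjusted p = 0.261) for Sevir.3G004300. Without the library that stood apart, where both had their highest value of the group, these were 0.20 and 0.18. The class A genes Sevir.1G089100 and Sevir.1G075700 had log2 differences of -0.25 and -0.18, and the class B gene Sevir.1G202700 had -0.26. Without the library that stood apart these were -0.24, -0.0409 and -0.0899, and with median ratio scaling they were -0.14, -0.0723 and -0.16. Without replicate 1 of A10.1 that of Sevir.1G089100 was -0.0869. Sevir.3G021400 had -0.08 with all libraries, and its sign turned to 0.13 without the library that stood apart and to 0.03 with median ratio scaling. The median log2 difference of the 10 genes was -0.22, and that of all genes tested was -0.10. Without the library that stood apart these medians were -0.07 and -0.06.

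**Figure D3:**
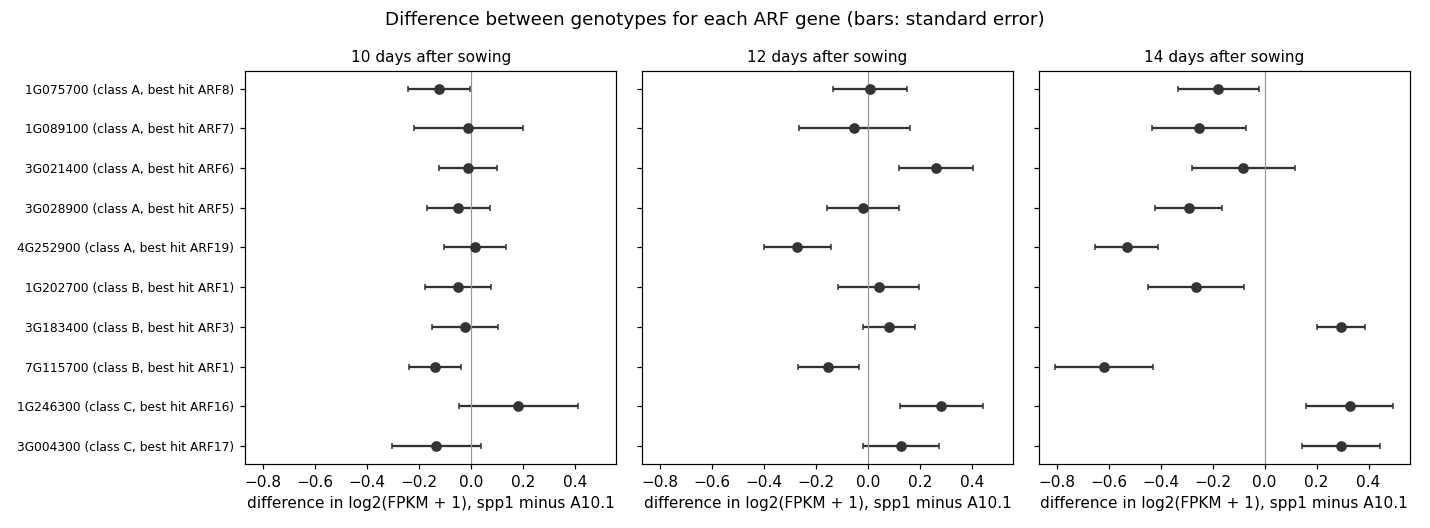
Difference between genotypes in log2(FPKM + 1), *spp1* minus A10.1 (horizontal axis), for each of the 10 ARF genes at 10, 12 and 14 DAS, with bars for the standard error. At 10 DAS the differences lie between -0.14 and 0.18, and at 14 DAS they spread from -0.62 for Sevir.7G115700 to 0.33 for Sevir.1G246300, with 0 past the threshold at any stage.

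An interaction term fitted over all 22 libraries in limma (F test) asked whether the genotype difference itself moved between stages. It passed for 0 of the 10 genes, where 0.0615% of all genes did. Of the 10 genes, 1 had an unadjusted p under 0.05, Sevir.4G252900, where 4.87% of all genes did. Its genotype difference moved by -0.55 on the log2 scale between 10 and 14 DAS (limma adjusted p = 0.890 for the F test). In 22 fits that each left out 1 library, this move lay between -0.61 and -0.44, and the F test passed in 0. The F test takes all stages together. The larger rise of Sevir.4G252900 from 10 to 14 DAS in A10.1 than in *spp1* was therefore not tested on its own.

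The ratio of 2 genes in the same library does not depend on how the library was scaled. The pair of Sevir.3G183400 and Sevir.4G252900 was chosen after their values had been seen, so it is given as a description. At 10 DAS, the FPKM of the ETTIN match over that of the ARF19 match was 2.10, 2.14, 1.94 and 1.76 in A10.1 and 1.97, 2.16, 1.83 and 1.76 in *spp1*. The genotypes overlapped at this stage. At 12 DAS the ratio was 1.81, 1.93 and 1.89 in A10.1 and 2.27, 2.36 and 2.62 in *spp1*, and at 14 DAS it was 1.44, 1.64, 1.62 and 1.68 in A10.1 and 3.03, 2.70, 2.93 and 2.81 in *spp1*. At 12 and 14 DAS every *spp1* library lay above every A10.1 library, and the ratio went down over the course in A10.1 (from a mean of 1.99 to 1.60) and up in *spp1* (from 1.93 to 2.87). Replicate 4 of *spp1* at 14 DAS, at 2.81, lay within the range of its group.

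The second pair, Sevir.3G183400 and Sevir.7G115700, was also formed from genes whose values had been seen. It shares a gene with the first pair, so it is a description too and not a separate observation. The share of all gene pairs whose ratio parts the genotypes was not computed. The ratio of Sevir.3G183400 to Sevir.7G115700, both class B, was 1.11, 1.02, 1.27 and 1.21 in A10.1 at 14 DAS and 1.87, 1.88, 2.05 and 3.21 in *spp1*. Here the highest value came from replicate 4 of *spp1*. At 10 DAS this ratio overlapped between the genotypes, with means of 1.46 and 1.58, and at 12 DAS it overlapped as well, with means of 1.499 and 1.763.

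**Figure D4:**
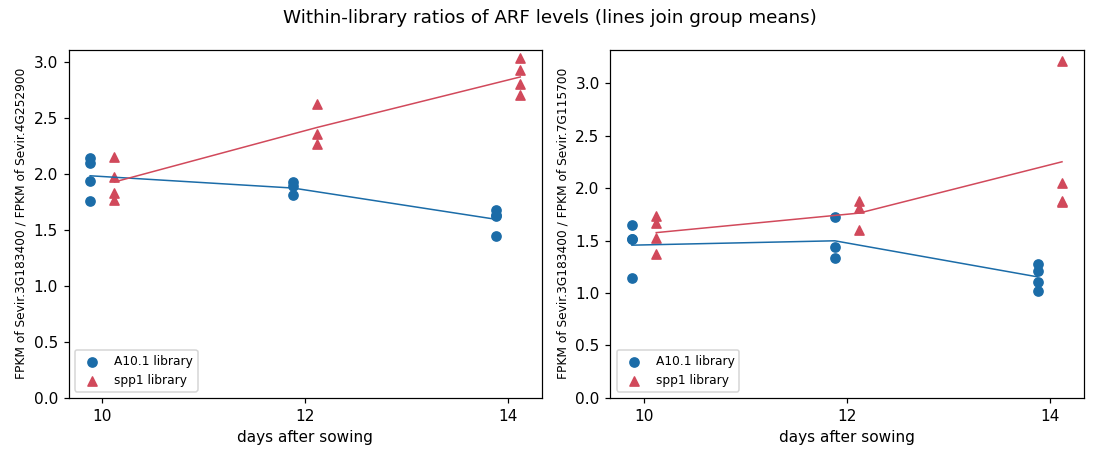
FPKM of Sevir.3G183400 over that of Sevir.4G252900 (left) and of Sevir.7G115700 (right), within each library (vertical axes, from 0), against days after sowing, with circles for A10.1, triangles for *spp1* and lines through the group means. The left ratio is alike at 10 DAS and reaches 1.44 to 1.68 in A10.1 and 2.70 to 3.03 in *spp1* at 14 DAS.

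Of the other 14 ARF genes, all were tested and 0 passed between genotypes by limma at any stage, with 0, 1 and 3 at an unadjusted p under 0.05 at 10, 12 and 14 DAS, against 4.16%, 9.05% and 22.9% of all genes. From 10 to 14 DAS 10 of them rose and 1 fell in A10.1, against 48.4% of all genes, and 4 rose and 1 fell in *spp1*, against 18.2%. Without replicate 4 of *spp1* at 14 DAS, 5 rose and 1 fell in *spp1*, against 30.0%. The gene that fell in both was Sevir.4G268700, like Sevir.1G246300 a class C match of ARF16 (log2 -0.83 in A10.1, limma adjusted p = 0.00565, and -0.73 in *spp1*, limma adjusted p = 0.00202). The largest rise of the 14 in both genotypes was that of Sevir.8G145300, a class B match of ARF2 (log2 1.19 and 1.01). Sevir.5G324700, a second gene of the ETTIN group, rose in both genotypes as well (log2 0.91 and 0.62). Sevir.5G268300, another match of ARF3, passed in neither (log2 0.14 in A10.1 and -0.14 in *spp1*).

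Summed by class over the 24 genes, class B made up most of the ARF transcript level. In A10.1 the class B sum was 604 ± 67.9 FPKM at 10 DAS and 975 ± 102 FPKM at 14 DAS (SD, n = 4 each), and in *spp1* it was 583 ± 72.6 FPKM and 839 ± 133 FPKM. The class A sum was 285 ± 34.4 FPKM and 376 ± 29.5 FPKM in A10.1, and 283 ± 18.7 FPKM and 349 ± 73.9 FPKM in *spp1*. The class C sum was 82.8 ± 23.5 FPKM and 55.9 ± 6.09 FPKM in A10.1, and 89.8 ± 11.9 FPKM and 64.6 ± 10.3 FPKM in *spp1*. Class C thus held 8.50% of the summed level in A10.1 at 10 DAS and 4.02% at 14 DAS, and 9.39% and 5.35% in *spp1*. Of the 5 class C genes, 2 fell and 1 rose in A10.1 from 10 to 14 DAS, against 48.4% of all genes that passed. The mean of Sevir.1G246300 alone went from 53.5 FPKM to 28.8 FPKM, and the gene that rose was Sevir.7G179200 (log2 0.58). Without replicate 4 the *spp1* sums at 14 DAS were 377 ± 60.4 FPKM for class A, 892 ± 97.1 FPKM for class B and 60.8 ± 8.59 FPKM for class C (SD, n = 3). The class C share in *spp1* at 14 DAS was then 4.65%. The 10 genes described here held, at 10 DAS, 33.7% of the sum in A10.1 and 34.0% in *spp1*.

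The genes most alike in pattern to each of the 10 were found by Pearson's r of log2(FPKM + 1) over the 22 libraries, among 12892 genes whose mean reached 5 FPKM. The libraries share stage, genotype and scaling, so r is a description. Sevir.7G115700 had the closest match of the 10, with an r of 0.987 to 0.989 for its 3 most alike genes, and Sevir.3G004300 the least close, with 0.705 to 0.729. Most of these genes had no description in the deposited tables. Among those that had one, a gene described as histidine kinase 4-like (Sevir.9G114400), of the cytokinin receptor family, went with Sevir.1G202700 (r = 0.916), and one described as the DNA replication licensing factor MCM5 (Sevir.1G358900), which acts in DNA replication, went with Sevir.3G028900 (r = 0.820).

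Within the ARF family, Sevir.7G115700 was most like Sevir.5G444700, a class B match of ARF2 (r = 0.968), and Sevir.1G246300 was most like the other falling class C gene, Sevir.4G268700 (r = 0.943). Sevir.4G252900 was most like the class B gene Sevir.5G324700 (r = 0.942), Sevir.3G021400 most like the ARF8 match Sevir.3G412300 (r = 0.929), and Sevir.3G183400 most like Sevir.8G145300 (r = 0.896). The most opposed pair of the 10 was Sevir.7G115700 and Sevir.1G246300 (r = -0.851), in A10.1 the gene of the 10 with the largest rise and the gene that fell. After the group means were taken out, r was 0.947 for Sevir.7G115700 and Sevir.5G444700, 0.948 for Sevir.3G021400 and Sevir.3G412300, and -0.580 for Sevir.7G115700 and Sevir.1G246300.

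The partners of ARFs in the pathway were counted from the study's list. Of 30 Aux/IAA repressor genes, 26 were tested over the A10.1 course, and from 10 to 14 DAS 3 rose and 11 fell (median log2 change -0.24), against 48.4% of all genes that passed. In *spp1*, 2 of 26 rose and 8 fell (median -0.08), against 18.2%, and without replicate 4 of 14 DAS the counts were also 2 and 8, against 30.0%. Of the 3 receptor genes of the TIR1/AFB family, 2 rose in A10.1, against 48.4% of all genes that passed. In *spp1* 0 of the 3 passed by limma, against 18.2%, with 1 at an unadjusted p under 0.05, against 31.9%. Without replicate 4 of *spp1* at 14 DAS, 2 of the 3 rose in *spp1*, against 30.0% of all genes that passed. Between genotypes, 0 receptor genes passed by limma at any stage, with 2 at an unadjusted p under 0.05 at 14 DAS, against 22.9% of all genes. The 1 Aux/IAA gene past the threshold between genotypes with all libraries was Sevir.3G396200, described as IAA30-like, at 53.2 FPKM in A10.1 and 93.3 FPKM in *spp1* at 12 DAS (log2 0.80, SE 0.09, limma adjusted p = 0.0186). At that stage 0.288% of all genes passed. At an unadjusted p under 0.05 there were 3 of 26, 5 of 26 and 9 of 25 Aux/IAA genes at 10, 12 and 14 DAS. The shares of all genes were 4.16%, 9.05% and 22.9%. *SvBA1*, a basic helix-loop-helix gene, was lower in *spp1* at 12 DAS (48.1 FPKM in A10.1 and 16.2 FPKM in *spp1*, limma adjusted p = 0.00953) and 14 DAS (log2 -1.19, limma adjusted p = 0.00350). Of 19 listed efflux genes 6 were tested between genotypes at 10 and 12 DAS and 7 at 14 DAS. Of 5 influx genes, among them the mutated gene *SPP1* itself, 4 were tested at each stage. With all libraries 0 of these passed by limma at any stage. At an unadjusted p under 0.05 there were 0 efflux genes at each stage, and 0, 2 and 1 influx genes at 10, 12 and 14 DAS, against 4.16%, 9.05% and 22.9% of all genes. At 12 DAS *SPP1* had a mean of 27.0 FPKM in A10.1 and 18.4 FPKM in *spp1*, while 3 of the 4 influx genes tested had a positive difference. Without replicate 4 of *spp1*, 14 DAS gave calls for 4 of 25 Aux/IAA genes (3 higher and 1 lower in *spp1*), 1 of 3 receptor genes (lower), 1 of 4 influx genes (lower) and 0 of 7 efflux genes, against 3.25% of all genes. Of the 7 efflux genes, 1 then had an unadjusted p under 0.05, where 19.7% of all genes did.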

How the data were processed

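After trimming by Trimmomatic, the authors mapped reads to version 1 of the genome (TopHat2, Bowtie2) and ran Cuffdiff, whose FPKM values per library and gene they deposited. Tool versions are not given in the sources used here. The authors also deposited the percent of reads mapped per library. Tables of the authors' own comparisons, with fold changes and adjusted p-values, were used only for gene descriptions. A total of 0 per-library columns was left out.

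The log2(FPKM + 1) values were fitted as deposited by limma 3.58.1 under R 4.3.3 (empirical Bayes with a trend), keeping genes whose mean reached 1 FPKM over the fitted libraries, with Benjamini-Hochberg adjustment within a comparison and a threshold of 0.05. Fold changes on this scale understate the change of low genes. Genotypes were compared stage by stage, stages within each genotype over its 11 libraries, and the interaction over 22. For the 10 genes alone, two-sided exact permutation tests were added. The fits were tested on simulated data, with changes added to genes whose mean reached 5 FPKM. Those changes were larger than any ARF change reported here. The simulation therefore does not show how often changes of the sizes reported here are found. Python 3.11.15 with matplotlib 3.10.9 drew the figures.

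All 10 members were named, other ARF genes mainly where they passed the threshold, and genes of other auxin lists where they passed between genotypes. Classes follow the best Arabidopsis match in the study's list. The members and lists were chosen with earlier results of these data known. The reference table matched 0 of the identifiers, so no sequences are shown. Replicates are separate pools of inflorescences, and no pair of the 22 libraries held identical values. As alternatives, median ratio scaling, 1 fit of all 22 libraries, a replicate block, a pseudocount of 0.1, no filter or one at a mean of 5 FPKM, and fits without each library in turn were run. Counts of the other lists and class sums without replicate 4 of *spp1* at 14 DAS were added after seeing the data.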

Additional observations from a re-analysis of the deposited data

Results flagged for a closer look

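In 2 of 40 groups of 4 libraries (10 genes in 4 groups), 1 library lay far from the other 3 by Dixon's criterion, which chance alone gives in about 1 group of 20. Sevir.1G202700 had 47.83 FPKM in replicate 1 of A10.1 at 10 DAS, where the others had 33.3 to 35.0 FPKM. Sevir.3G028900 had 21.35 FPKM in replicate 1 of A10.1 at 14 DAS, where the others had 14.9 to 15.8 FPKM. Without that library the log2 difference of Sevir.3G028900 between genotypes at 14 DAS was the smallest of the 8 fits that left out 1 library, at -0.18.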

How the results depend on the processing

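Between genotypes at 14 DAS, 1 gene passed with the replicate block (Sevir.7G115700, limma adjusted p = 0.0410) and 2 in 1 fit of all 22 libraries, where 2.90% and 8.71% of all genes passed. The block rests on a number whose meaning is not stated. Deviations of same-numbered libraries at 14 DAS had correlations of 0.0670 to 0.301 over the genes tested, under the 0.1 required in 1 pair, and of 0.107 to 0.436 over genes whose mean reached 5 FPKM, and 1 of 4 libraries correlated best with its own number. From 12 to 14 DAS in A10.1, 0 genes passed with no filter, with median ratio scaling or in the fit of all libraries, and 0 to 2 when 1 library was left out (2.81% to 6.11% of all genes). From 10 to 14 DAS in *spp1*, 1 to 5 passed when 1 library was left out (13.3% to 30.0% of all genes). From 10 to 12 DAS in *spp1*, 2 passed in the fit of all libraries (5.76% of all genes) and 1 to 2 when 1 library was left out (0.531% to 6.24%).

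Signs turned only for values that had not passed. With median ratio scaling the log2 difference between genotypes became 5e-04 for Sevir.3G183400, 0.0132 for Sevir.1G089100 and 0.0113 for Sevir.3G021400 at 10 DAS, and 0.0281 for Sevir.3G021400 at 14 DAS, and the change from 10 to 14 DAS in A10.1 became -0.0048 for Sevir.1G202700. With a pseudocount of 0.1 that change became 1e-04 for Sevir.3G004300. When 1 library was left out, the difference at 10 DAS ranged from -0.0948 to 0.0654 for Sevir.3G183400, -0.12 to 0.15 for Sevir.1G089100, -0.10 to 0.0653 for Sevir.1G202700, -0.0844 to 0.0755 for Sevir.3G021400, -0.12 to 0.0245 for Sevir.3G028900, -0.0905 to 0.0792 for Sevir.4G252900 and -0.0416 to 0.35 for Sevir.1G246300. At 12 DAS it ranged from -0.13 to 0.0986 for Sevir.1G075700, -0.21 to 0.17 for Sevir.1G089100, -0.12 to 0.18 for Sevir.1G202700 and -0.17 to 0.0872 for Sevir.3G028900, and at 14 DAS from -0.22 to 0.13 for Sevir.3G021400. The change from 10 to 14 DAS ranged from -0.0941 to 0.12 for Sevir.3G004300 in A10.1, and in *spp1* from -0.0863 to 0.0565 for Sevir.3G028900 and -0.20 to 0.0916 for Sevir.1G202700. The causes were not tested. The file gives no counts, so no limit from depth can be computed. Sevir.3G004300, with the lowest FPKM, has no value under the filter at a mean of 5 FPKM.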

Other observations

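Within a group, the 10 genes often moved together from library to library. The share of all genes at their lowest or highest in the same libraries was not computed. The counts below are therefore not shown to be particular to the 10. Replicate 3 of *spp1* at 10 DAS held the lowest value of its group for 8 of the 10 genes, and replicate 2 of *spp1* at 12 DAS the highest for 8 of 10. The class C genes Sevir.1G246300 and Sevir.3G004300 were the 2 that had their lowest value in that 12 DAS library. In replicate 4 of *spp1* at 12 DAS, 7 genes were at their lowest and both class C genes at their highest, and replicate 3 of A10.1 at 14 DAS showed the same counts. In replicate 4 of *spp1* at 14 DAS, 4 genes were at their lowest and both class C genes at their highest. Replicate 1 of A10.1 held the highest value for 7 genes at 10 DAS and for 6 at 14 DAS.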
